A study of Mus musculus with 4 samples.

Results

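The cells described here are liver endothelial cells that carry the RNA of Rspo3 and Wnt9b, the secreted Wnt-pathway signals known from the endothelium of the central vein. They were picked one by one in 2 single-cell RNA-seq libraries of mouse liver non-parenchymal cells. A barcode was kept with at least 1000 UMIs (unique molecular identifiers, each standing for 1 captured RNA molecule), 300 genes and at most 20% mitochondrial UMIs. A kept cell was called a central vein cell when Rspo3 and Wnt9b together gave at least 3 UMIs and at least 4 UMIs per 10000, the endothelial genes Kdr, Ptprb, Cdh5 and Egfl7 together at least 10 per 10000, and the mesothelial genes Msln, Upk3b, Nkain4 and Lrrn4 together under 10 per 10000. The name stands for this rule only. Chosen cells with low levels of Rspo3 and Wnt9b also held RNA of sinusoidal genes, as given below. The rule found 502 cells among 8089 kept cells, 171 of 2818 in the recovery library and 331 of 5271 in the injury library. They were set beside endothelial cells of the same library with 0 UMIs of both genes, 1995 at recovery and 3124 at injury, called other endothelial cells below.

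The libraries came from Col1a2-CreERT2 mice with a tdTomato reporter, in which Col1a2 promoter activity drives the recombinase and so marks collagen-producing mesenchymal cells. The recovery library held reporter-negative cells of recovery mice, with the reporter written R29RtdTomato in the labels, and the injury library reporter-negative cells of MCDHF-injury mice, with R28RtdTomato. MCDHF stands for a methionine- and choline-deficient diet with 45% high fat and 0.1% L-methionine in the drinking water, which was given for 8 weeks to induce steatohepatitis and which both groups share as their injury. Livers were digested with 14 mg Pronase and 3.7 U Collagenase per mouse, purified by Nycodenz density centrifugation, and libraries were made with 10x Genomics 3' v2 chemistry. Not given in the sources used here are the length of recovery, how the fractions were separated, and the number, age and sex of the mice. No library of untreated mice was analysed here. The aim named for the series concerns mesenchymal cells, and the endothelial cells came with them.

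Each condition had 1 library, so no difference between recovery and injury has a replicate check and no p-value is given. Cells of 1 library are not replicates. The libraries held 27816768 UMIs in 3108 barcodes at recovery and 49993127 UMIs in 6160 barcodes at injury, and shared 3 barcodes, none of them among the central vein cells. Central vein cells had a median of 11147 UMIs (1002 to 42079) and 3746 genes at recovery, against 7434 UMIs (1034 to 21904) and 2791 genes at injury. Other endothelial cells had medians of 8355 UMIs at recovery and 5938.5 UMIs at injury. Levels are given in CPM, the UMIs of a gene per 1000000 UMIs of the summed cells, with exact Poisson 95% intervals that cover counting error only. The summed depth was 1999469 UMIs in central vein and 16776687 UMIs in other endothelial cells at recovery, and 2539271 and 19295313 UMIs at injury. A log2 ratio was taken after adding 10 CPM to both levels, which understates changes of low genes, and a gene was called higher or lower from a 2-fold difference on that scale.

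Wnt ligands are secreted lipid-modified proteins that stabilise beta-catenin through Frizzled and LRP receptors, and R-spondins strengthen that signal by protecting the receptors from turnover. In the liver the endothelium of the central vein and the neighbouring sinusoids secretes Wnt2, Wnt9b and Rspo3, and the hepatocytes around the vein answer with their pericentral genes for glutamine synthesis and xenobiotic metabolism. The central vein itself is lined by continuous endothelium, while sinusoids are lined by fenestrated cells that take up waste molecules through scavenger receptors.

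Rspo3 (ENSMUSG00000019880, chr10:29452416-29535867, minus strand) and Wnt9b (ENSMUSG00000018486, chr11:103727364-103749821, minus strand) chose the cells, so their levels are a description of the choice. Coordinates are GENCODE M21 gene bounds on mm10. Rspo3 had 4636 CPM (4542 to 4731) in central vein cells at recovery and 1795 CPM (1744 to 1848) at injury, and was at 0 in the other endothelial cells by the rule. Wnt9b had 366 CPM (339.6 to 393) at recovery and 158 CPM (143 to 175) at injury. Rspo3 supplied most of the signal used by the rule: the median cell held 49 Rspo3 and 3 Wnt9b UMIs at recovery, against 10 and 1 at injury. Both genes were detected in 140 of 171 cells at recovery and 186 of 331 at injury, Rspo3 alone in 31 and 141, and Wnt9b alone in 0 and 4. After thinning to 2000 UMIs per cell a Wnt9b UMI remained in 48.8% of central vein cells at recovery and 26.8% at injury (81.9% and 57.4% unthinned), against 0.400% and 0.344% of unthinned duct-marked cells. Duct-marked cells had at least 20 bile duct marker UMIs and under 2 endothelial UMIs per 10000, should lack these genes, and had median depths of 11974 UMIs at recovery and 16089 UMIs at injury. The chosen cells held 98.4% of all Rspo3 UMIs and 91.9% of all Wnt9b UMIs of the kept cells at recovery, against 88.9% and 65.7% at injury. Endothelial cells with some UMIs of either gene but short of the limits numbered 132 at recovery and 317 at injury and were placed in neither group.

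Central vein cells were 7.44% (6.40 to 8.59, exact binomial 95% interval) of 2298 endothelial cells at recovery and 8.78% (7.89 to 9.72) of 3772 at injury. The intervals overlapped. They cover counting error within 1 library only, and the overlap belongs to the limit of 4 UMIs per 10000. At 40 or more per 10000 there were 104 cells at recovery and 39 at injury, and at 4 to 8 there were 11 and 81. Whether the conditions have a like share of such cells was not tested. Near the limit, 5 recovery and 20 injury cells lay at 4 to 5 UMIs per 10000 just inside, and 5 and 16 cells with at least 3 UMIs lay at 3 to 4 per 10000 just outside. Wnt2 had 1278 CPM in the cells just inside and 695 CPM just outside at recovery, against 403 and 298 CPM at injury. The sinusoidal receptor gene Stab2 had 1257 CPM inside and 1260 CPM outside at recovery, against 541 and 708 CPM at injury. Of the chosen cells, 2 at recovery and 33 at injury rested on exactly 3 UMIs.

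The promoters of 4 secreted signals of these cells are shown, since the results turn on the genes by which the cells address their neighbours. They are Wnt9b (chr11:103749772-103750071, minus strand), Wnt2 (chr6:18030396-18030695, minus strand), Bmp4 (chr14:46390620-46390919, minus strand) and Edn1 (chr13:42301226-42301525, plus strand). Each line runs 5′ to 3′ from 250 bases before to 50 after the RefSeq transcription start on GRCm38.p6.
Wnt9b: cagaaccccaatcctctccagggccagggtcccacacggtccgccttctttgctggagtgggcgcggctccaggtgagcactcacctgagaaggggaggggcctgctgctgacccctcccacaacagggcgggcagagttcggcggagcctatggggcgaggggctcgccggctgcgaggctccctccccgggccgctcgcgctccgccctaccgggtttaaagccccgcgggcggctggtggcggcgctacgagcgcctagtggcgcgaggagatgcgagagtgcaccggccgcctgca
Wnt2: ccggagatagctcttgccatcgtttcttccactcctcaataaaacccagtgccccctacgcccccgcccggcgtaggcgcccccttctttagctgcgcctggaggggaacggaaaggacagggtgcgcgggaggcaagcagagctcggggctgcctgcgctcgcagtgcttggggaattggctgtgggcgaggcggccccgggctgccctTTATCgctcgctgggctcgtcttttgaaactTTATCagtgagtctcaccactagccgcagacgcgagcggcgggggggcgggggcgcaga
Bmp4: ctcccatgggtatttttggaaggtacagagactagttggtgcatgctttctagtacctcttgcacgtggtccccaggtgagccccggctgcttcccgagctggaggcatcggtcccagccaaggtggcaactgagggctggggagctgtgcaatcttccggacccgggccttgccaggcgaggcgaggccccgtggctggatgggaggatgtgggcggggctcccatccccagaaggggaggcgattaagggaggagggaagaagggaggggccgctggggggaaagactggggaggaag
Edn1: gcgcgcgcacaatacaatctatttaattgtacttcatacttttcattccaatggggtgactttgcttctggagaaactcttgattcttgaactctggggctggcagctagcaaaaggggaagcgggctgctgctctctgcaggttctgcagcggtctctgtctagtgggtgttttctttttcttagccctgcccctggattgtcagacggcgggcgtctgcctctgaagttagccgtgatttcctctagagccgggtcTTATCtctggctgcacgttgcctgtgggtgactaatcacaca
Capitals mark GATAA on either strand, the core bound by GATA factors. The Wnt2 window held it 40 and 9 bases before the start and the Edn1 window 8 bases after it, while the Wnt9b and Bmp4 windows held none. GATAA occurs in 25.4% of 32851 mouse promoter windows of this length. The letters CTTTGA of TCF and LEF factors, found in 16.0% of all windows, and TGACTCA of AP-1, found in 5.20%, were searched on both strands and were in none of these 4. A match is a description of the letters only.

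Among the 23 Wnt and R-spondin ligand genes, Wnt2 (ENSMUSG00000010797, chr6:17988940-18030585, minus strand) was the one gene besides Rspo3 and Wnt9b that passed the filter on low counts (at least 30 UMIs in both groups together and 30 CPM in one). Wnt2 was not part of the rule and had 773 CPM (735 to 812) in central vein against 256 CPM in other endothelial cells at recovery. At injury the values were 469 CPM (443 to 497) against 152 CPM, and the log2 ratios 1.56 at recovery and 1.57 at injury. Both cell groups held Wnt2: the central vein cells carried 23.9% of the kept cells' Wnt2 UMIs at recovery and 24.0% at injury. The next ligand, Wnt4, was at 11.5 CPM in central vein cells against 5.84 CPM in other endothelial cells at recovery, and 5.12 CPM against 9.02 CPM at injury. Across all genes, 3.95% of 5902 tested at recovery and 2.04% of 5398 at injury were 2-fold or more higher in central vein cells. The share lower was 4.34% at recovery and 1.2% at injury, and the median ratios were -0.04 and 0.01. Because the rule used this contrast, the counts of called genes in it describe the chosen cells and support nothing further.

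Most measured genes for sending and receiving Wnt signals were under the 2-fold limit between the cell groups. Of 9 secretion, receptor and turnover genes that passed the filter at recovery, 1 was called higher and 1 lower (median log2 ratio -0.18), and at injury 0 of 8 were called (median -0.04). Over all genes 3.95% were higher and 4.34% lower at recovery, and 2.04% and 1.2% at injury. Wls, the carrier that every secreted Wnt needs, was at 168 CPM in central vein cells against 158 CPM in other endothelial cells at recovery, and 167 CPM against 145 CPM at injury. The Wnt receptor Fzd4 was at 195 CPM in central vein cells against 222 CPM in other endothelial cells at recovery, and 162 CPM against 178 CPM at injury. Fzd6, a receptor of the same family, was the gene called higher at recovery (52.0 against 20.7 CPM), and Adgra2, a co-receptor for Wnt7 ligands, the gene called lower (29.0 against 79.4 CPM). Frzb, a secreted Wnt antagonist, was at 18.5 CPM in central vein cells against 0.179 CPM in other endothelial cells at recovery, and 32.3 CPM against 0.829 CPM at injury, and was the 1 antagonist of 4 measured that was called higher at injury. Of 9 Wnt transducers and targets measured in each library, the cell-cycle gene Ccnd1 was called lower and none higher. Ccnd1 was at 43.0 CPM in central vein cells against 273 CPM in other endothelial cells at recovery, and 18.5 CPM against 131 CPM at injury.

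Of 12 measured genes known from the pericentral end of the liver endothelium, a list made with earlier results of these data in view, 10 were called higher and none lower at recovery (median log2 ratio 2.09), and 8 higher and 1 lower at injury (median 1.6). Among all genes 3.95% were higher and 4.34% lower at recovery, and 2.04% and 1.2% at injury. Lhx6 (chr2:36081953-36105408, minus strand), a LIM homeobox transcription factor gene, had 351 CPM (325 to 378) against 7.51 CPM at recovery and 112 CPM (99.2 to 126) against 10.0 CPM at injury. Bmp4, which encodes a secreted bone morphogenetic protein, had 558 CPM (526 to 592) against 1.61 CPM at recovery and 251 CPM (232 to 271) against 1.81 CPM at injury. The vasoconstrictor gene Edn1 had 1040.3 CPM (996 to 1086) against 41.4 CPM at recovery and 497 CPM (469.6 to 525) against 40.3 CPM at injury. In all 3 genes the central vein value lay far above the other value in both libraries, with log2 ratios at recovery and injury of 4.36 and 2.61 for Lhx6, 5.61 and 4.46 for Bmp4, and 4.35 and 3.33 for Edn1. Of the kept cells' UMIs, central vein cells held 78.1% of Lhx6, 72.2% of Bmp4 and 71.8% of Edn1 at recovery. At injury the shares were 47.6%, 53.3% and 53.0%.

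Most other pericentral genes had smaller ratios. Cdh13, an adiponectin-binding cadherin, was at 701 CPM in central vein cells against 102 CPM in other endothelial cells at recovery, and 313 CPM against 70.8 CPM at injury. Thbd, the thrombin receptor that turns on the anticoagulant protein C, was at 843 CPM in central vein cells against 224 CPM in other endothelial cells at recovery, and 1602 CPM against 506 CPM at injury. Ptgs1, which makes prostaglandin precursors, had log2 ratios 1.59 at recovery and 1.13 at injury, and the matrix gene Fbln2 had log2 ratios 2.60 at recovery and 2.95 at injury. Fabp4, a fatty acid carrier, was called higher at recovery only, with 4846 CPM in central vein cells against 969.5 CPM in other endothelial cells at recovery, and 1896 CPM against 1442 CPM at injury. Car8, a carbonic anhydrase relative, had log2 ratios 1.15 at recovery and 0.91 at injury. Kit, the receptor for stem cell factor, was under the 2-fold limit in both libraries with log2 ratios 0.45 at recovery and 0.55 at injury. Clu, the gene of a secreted chaperone, was called lower at injury (392 against 987 CPM) and was under the limit at recovery (467 against 293 CPM). Few cells carried much of it: 5 held 76.3% of its 933 UMIs in central vein cells at recovery, leaving 221 UMIs, and 52.4% of 995 UMIs at injury. Clu is also a duct gene, with 13115 CPM at recovery and 22920.0 CPM at injury in duct-marked cells, and the part of free duct RNA in its values was not tested.

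**Figure D1:**
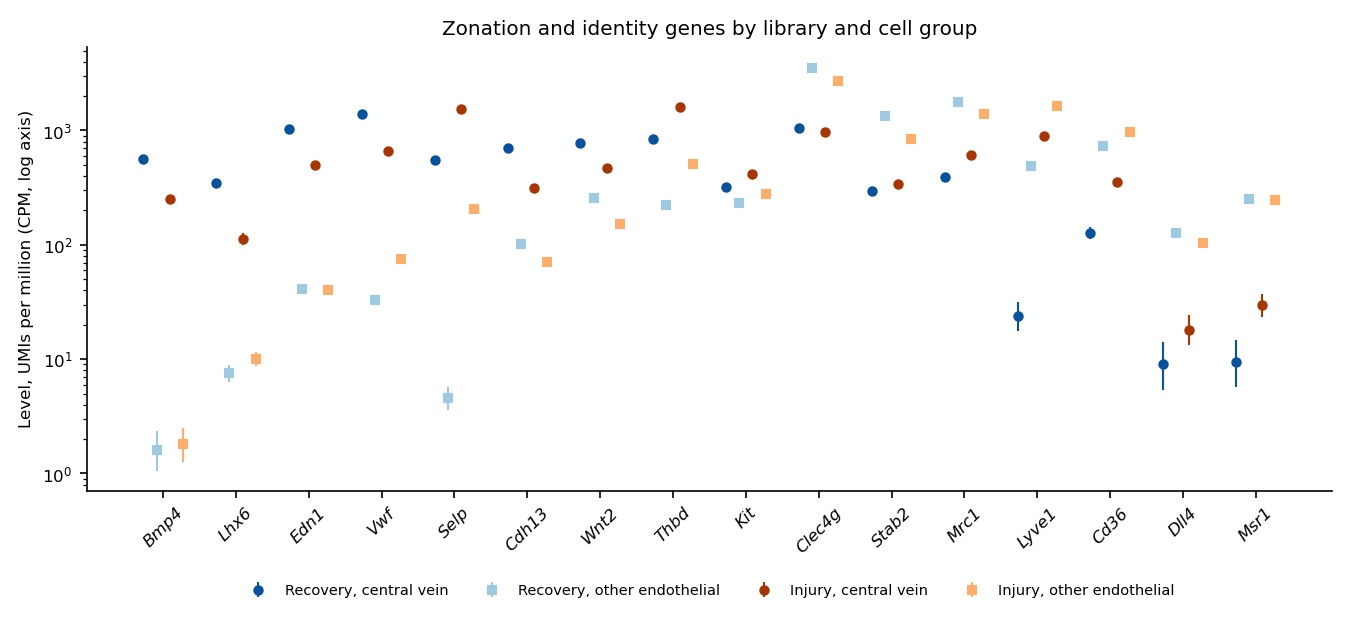
Levels of 16 genes in CPM on a log axis in central vein and other endothelial cells of the recovery and injury libraries, with exact Poisson 95% intervals as bars. Bmp4, Lhx6, Edn1, Vwf and Selp lie higher in central vein cells in both libraries, and Clec4g, Stab2, Mrc1, Cd36, Dll4 and Msr1 lower; Lyve1 is at 24.0 CPM in central vein cells at recovery and at 894 CPM at injury.

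Of 15 measured genes of fenestrated sinusoidal cells, 12 were called lower in central vein cells at recovery (median log2 ratio -1.82) and 7 at injury (median -0.90), and none higher. Lower over all genes were 4.34% at recovery and 1.2% at injury. All 15 sinusoidal genes were still detected in central vein cells. The hyaluronan scavenger gene Stab2 was at 298 CPM in central vein cells against 1334 CPM in other endothelial cells at recovery, and 339 CPM against 842 CPM at injury. Clec4g, a C-type lectin of sinusoidal cells, was at 1055 CPM in central vein cells against 3549 CPM in other endothelial cells at recovery, and 979 CPM against 2714 CPM at injury. Mrc1, the mannose receptor, had log2 ratios -2.14 at recovery and -1.17 at injury, and the immunoglobulin receptor Fcgr2b had log2 ratios -2.10 at recovery and -1.11 at injury. Maf, a transcription factor of sinusoidal endothelium, was at 918 CPM in central vein cells against 2794 CPM in other endothelial cells at recovery, and 1075 CPM against 2012 CPM at injury. Gata4, another transcription factor of these cells, was at 269 CPM in central vein cells against 248 CPM in other endothelial cells at recovery, and 224 CPM against 219.7 CPM at injury and so was not lower. Stab1 and Meis2 were also under the limit in both libraries, with ratios of -0.94 and -0.67 at recovery and -0.61 and -0.13 at injury.

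Of genes of the opposite, periportal end of the sinusoid, 8 of 13 were called lower at recovery (median log2 ratio -1.28) and 5 of 12 at injury (median -0.91), with none higher. Dll4, a Notch ligand, was at 9.0 CPM in central vein cells against 126 CPM in other endothelial cells at recovery, and 18.1 CPM against 104 CPM at injury. Efnb2, an arterial ephrin, was at 13.5 CPM in central vein cells against 119 CPM in other endothelial cells at recovery, and 39.0 CPM against 143 CPM at injury. Msr1, a scavenger receptor, was at 9.50 CPM in central vein cells against 251 CPM in other endothelial cells at recovery, and 29.5 CPM against 248 CPM at injury, although 1 cell held 57.9% of its 19 UMIs in central vein cells at recovery. Cd36, a fatty acid receptor, was at 127 CPM in central vein cells against 729 CPM in other endothelial cells at recovery, and 354.04 CPM against 966 CPM at injury, and the integrin gene Itga9 had log2 ratios -2.18 at recovery and -1.29 at injury. Dll4 was also among the Notch genes measured, of which 1 was called higher (Lfng, a modifier of Notch receptors, 1.09) and 2 lower of 10 at recovery, the second being the Notch target Hes1 at -1.67. At injury Dll4 was the 1 of 10 called. Beside these periportal and Notch counts, 3.95% of all genes were higher and 4.34% lower at recovery, and 2.04% and 1.2% at injury.

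Genes of large and continuous vessels were split. Of 18 measured, 7 were called higher and 1 lower at recovery (median log2 ratio 0.74), and 5 higher and 2 lower at injury (median 0.41). The all-gene shares were 3.95% higher and 4.34% lower at recovery, and 2.04% and 1.2% at injury. Vwf (chr6:125546774-125686679), the platelet-binding von Willebrand factor, had 1393 CPM (1342 to 1446) against 32.8 CPM at recovery and 666 CPM (635 to 699) against 74.5 CPM at injury. Central vein cells held 81.8% of the kept cells' Vwf UMIs at recovery and 52.7% at injury. Other endothelial cells were not split by vessel type, and single cells among them at injury reached 115 Vwf UMIs per 10000, against 45.7 in central vein cells. Plvap, the diaphragm protein of fenestrae and caveolae, was at 921 CPM in central vein cells against 169.8 CPM in other endothelial cells at recovery, and 642 CPM against 183 CPM at injury. Bgn, a small proteoglycan, had log2 ratios 1.52 at recovery and 1.51 at injury, and Fbln5, an elastic fibre protein, log2 ratios 2.45 at recovery and 1.99 at injury. The tight junction gene Cldn5 was lower, at 135 CPM in central vein cells against 924 CPM in other endothelial cells at recovery, and 132 CPM against 519.7 CPM at injury. Ly6c1, a marker of portal and capillary endothelium in mouse, was at 4.50 CPM in central vein cells against 21.4 CPM in other endothelial cells at recovery, and 24.8 CPM against 99.7 CPM at injury, and was called lower at injury. The arterial connexin gene Gja5 did not pass the filter.

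Selp (chr1:164115264-164150026), which encodes P-selectin, the receptor on which leukocytes begin to roll, had 550.1 CPM (518 to 584) against 4.59 CPM at recovery. At injury it had 1544 CPM (1496 to 1593) against 205 CPM, so it was higher in central vein cells of both libraries and other endothelial cells held it mainly at injury. Of the kept cells' Selp UMIs, central vein cells held 91.8% at recovery and 43.7% at injury. Over all genes 3.95% were higher and 4.34% lower at recovery, and 2.04% and 1.2% at injury. Of 10 leukocyte adhesion genes, 6 were called higher at recovery (median log2 ratio 1.38) and 3 at injury (median 0.27), and none lower. Vcam1 and Icam1, the ligands for firm adhesion, had ratios of 1.78 and 1.16 at recovery, against 0.37 and 0.45 at injury. Sele, which encodes E-selectin, was at 67.0 CPM in central vein cells against 10.7 CPM in other endothelial cells at recovery, and 187 CPM against 61.1 CPM at injury. Among coagulation genes 4 of 8 were called higher and 1 lower at recovery, and 4 of 10 higher and none lower at injury. They included Entpd1, an enzyme that removes the platelet agonist ADP, at 294 CPM in central vein cells against 5.01 CPM in other endothelial cells at recovery, and 189.8 CPM against 11.2 CPM at injury. Procr, the receptor of protein C, was called higher at injury (86.6 against 20.1 CPM), with 47.7% of its 220 UMIs in 5 cells and 115 UMIs without them, and Tfpi, an inhibitor of tissue factor, lower at recovery (130.0 against 298 CPM).

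Besides Wnt signals, endothelial cells release growth factors that act on hepatocytes and stellate cells. Of 12 such genes at recovery 4 were called higher and 4 lower, and of 13 at injury 4 were higher and 1 lower. Among all genes 3.95% were higher and 4.34% lower at recovery, and 2.04% and 1.2% at injury. Bmp4, Tgfb2 and the matricellular genes Ctgf and Cyr61 were higher in both libraries. Tgfb2, a TGF-beta ligand, was at 248 CPM in central vein cells against 1.79 CPM in other endothelial cells at recovery, and 82.7 CPM against 5.91 CPM at injury. Ctgf had log2 ratios 2.05 at recovery and 2.20 at injury, and Cyr61 log2 ratios 2.10 at recovery and 1.21 at injury. Bmp2 and Bmp6, known as the endothelial signals that set hepcidin production in hepatocytes, were on the lower side. Bmp2 was at 615 CPM in central vein cells against 1828 CPM in other endothelial cells at recovery, and 1241 CPM against 1713 CPM at injury, and Bmp6 at 31 CPM in central vein cells against 119 CPM in other endothelial cells at recovery, and 39.0 CPM against 66.9 CPM at injury; both were called lower at recovery and were under the limit at injury. Hgf, the hepatocyte growth factor, was likewise called lower at recovery (17.5 against 108 CPM; log2 ratio -2.10) and not at injury (81.1 against 133 CPM; -0.65). Set against other endothelial cells, the members of the BMP family were thus unequally placed. Bmp4 was called higher in both libraries, and Bmp2 and Bmp6 lower at recovery only. The central vein cells of the libraries differ in their Rspo3 and Wnt9b level. The part of that in the unlike calls of Bmp2, Bmp6 and Hgf was not tested. In CPM, Bmp2 still exceeded Bmp4 in central vein cells of both libraries.

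Over all measured genes, the 20 with the largest ratio in both libraries at once were named, taking for each gene the smaller of its ratios. Beyond the genes above they were Cyp1b1, Fmo2, Samd5, Sprr2b, Hs3st1, Tspan13, Cit, Ctnnal1, Rnf165, Fstl1, Bcam and Rbms3. Cyp1b1, a cytochrome P450 that metabolises steroids and xenobiotics, was at 153 CPM in central vein cells against 0.179 CPM in other endothelial cells at recovery, and 142 CPM against 0.466 CPM at injury. Fmo2, a flavin-containing monooxygenase, was at 417 CPM in central vein cells against 8.82 CPM in other endothelial cells at recovery, and 156 CPM against 8.65 CPM at injury. Sprr2b was at 136 CPM at recovery, at least 758-fold higher than in other endothelial cells, which held 0 UMIs and were set at a floor of 3 UMIs over the group. The 5 cells with most Sprr2b held 38.7% of its 271 UMIs there, and at injury 5 cells held 67.8% of 149 UMIs, leaving 48, so its place among the 20 rests on few cells. Hs3st1, an enzyme that makes the antithrombin-binding form of heparan sulfate, was at 125 CPM in central vein cells against 3.04 CPM in other endothelial cells at recovery, and 61.8 CPM against 3.06 CPM at injury. Bcam, a laminin receptor, had log2 ratios 2.63 at recovery and 2.35 at injury, and the last of the 20 was the RNA-binding protein gene Rbms3 with log2 ratios 3.59 at recovery and 2.29 at injury. The 12 genes named lower by the mirrored rule included Adam23 (log2 ratios -3.32 at recovery and -1.59 at injury), Gatm, the first enzyme of creatine synthesis (log2 ratios -2.07 at recovery and -1.58 at injury), the tip-cell gene Esm1 (log2 ratios -2.40 at recovery and -3.08 at injury) and the adenosine receptor Adora2a (log2 ratios -1.69 at recovery and -1.55 at injury).

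**Figure D2:**
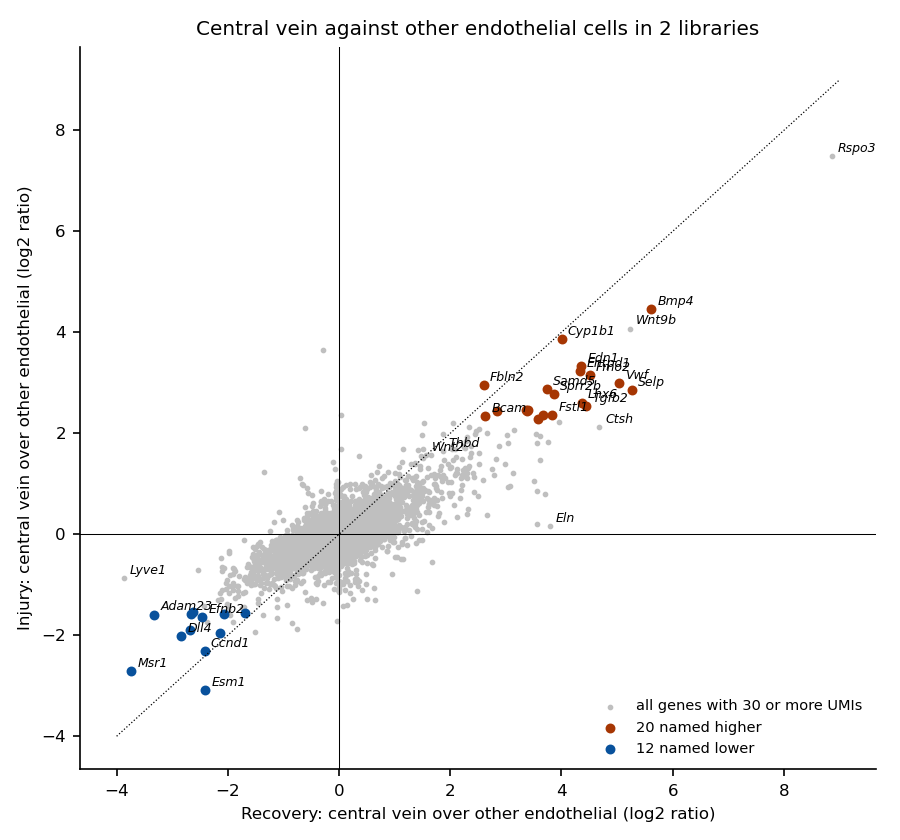
Log2 ratio of central vein over other endothelial cells for each gene with 30 or more UMIs, at recovery on the horizontal axis and at injury on the vertical axis, with the dotted line of equal ratios. The 20 genes named higher (brown) and 12 named lower (blue) have the same sign in both libraries because they were chosen that way. Most points of the higher group lie below the line, with the larger ratio at recovery. Rspo3 and Wnt9b chose the cells, and central vein cells at recovery held more of both than those at injury.

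**Figure D3:**
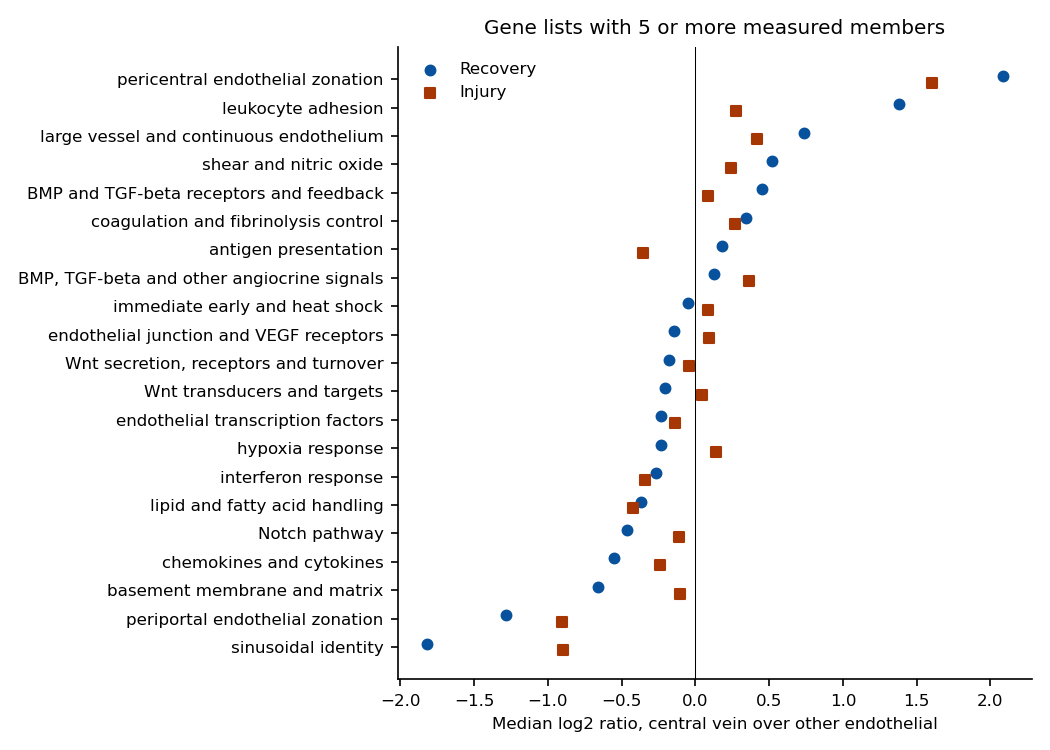
Median log2 ratio of central vein over other endothelial cells for each gene list with at least 5 measured genes, at recovery and at injury. Pericentral genes lie at 2.09 and 1.6, sinusoidal genes at -1.82 and -0.90, and periportal genes at -1.28 and -0.91. The central vein cells of the libraries differ in their Rspo3 and Wnt9b level.

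The central vein cells were not alike. Their Rspo3 and Wnt9b UMIs per 10000 ran from 4.01 to 110 (median 50.2) at recovery and from 4.11 to 86.9 (median 15.1) at injury. In 4 ranges of that level, 4 to 8, 8 to 20, 20 to 40 and 40 or more per 10000, there were 11, 27, 29 and 104 cells at recovery, which are 6.43%, 15.8%, 17.0% and 60.8% of them. At injury there were 81, 128, 83 and 39 cells, or 24.5%, 38.7%, 25.1% and 11.8%. The recovery cells thus sat mostly in the top range and the injury cells in the middle ones. The lowest recovery range has 11 cells and its values are thin.

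Genes chosen for display behaved unlike each other along these ranges. Vwf was at 0, 249, 771 and 1899.9 CPM from the lowest to the highest range at recovery and at 179, 266, 1156 and 1944 CPM at injury. Bmp4 was at 9.04, 137, 323 and 749.7 CPM at recovery and 81.5, 116, 475 and 578 CPM at injury, and Edn1 at 45.2, 211, 440.0 and 1448 CPM and 57.8, 363, 868 and 1107 CPM. Stab2 was lowest in the top range, with 1112, 1173, 407 and 34.1 CPM at recovery and 564, 399.6, 160.3 and 25.5 CPM at injury, and Clec4g likewise with 2993, 2644, 1306 and 522 CPM and 1311, 1216, 593 and 319 CPM. Thbd showed no steady order, at 714, 704, 1136 and 798 CPM at recovery and 1446, 1648, 1697 and 1618 CPM at injury, and Selp was at 63.3, 311, 248 and 721 CPM at recovery and 947, 1437, 2092 and 2071 CPM at injury. Wnt2 was at 1148, 812, 635 and 771 CPM at recovery and 427, 477, 504 and 472 CPM at injury. Kit was highest in the low ranges, at 778, 559, 507 and 186 CPM at recovery and 487, 509, 296 and 214 CPM at injury. Split by detection of Wnt9b, itself a gene of the rule, Vwf was at 1519 CPM in cells with Wnt9b and 499 CPM in cells with Rspo3 alone at recovery, against 831 and 426 CPM at injury. A Wnt9b UMI is more easily found in a deeper cell, and the part of depth in that split was not tested.

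**Figure D4:**
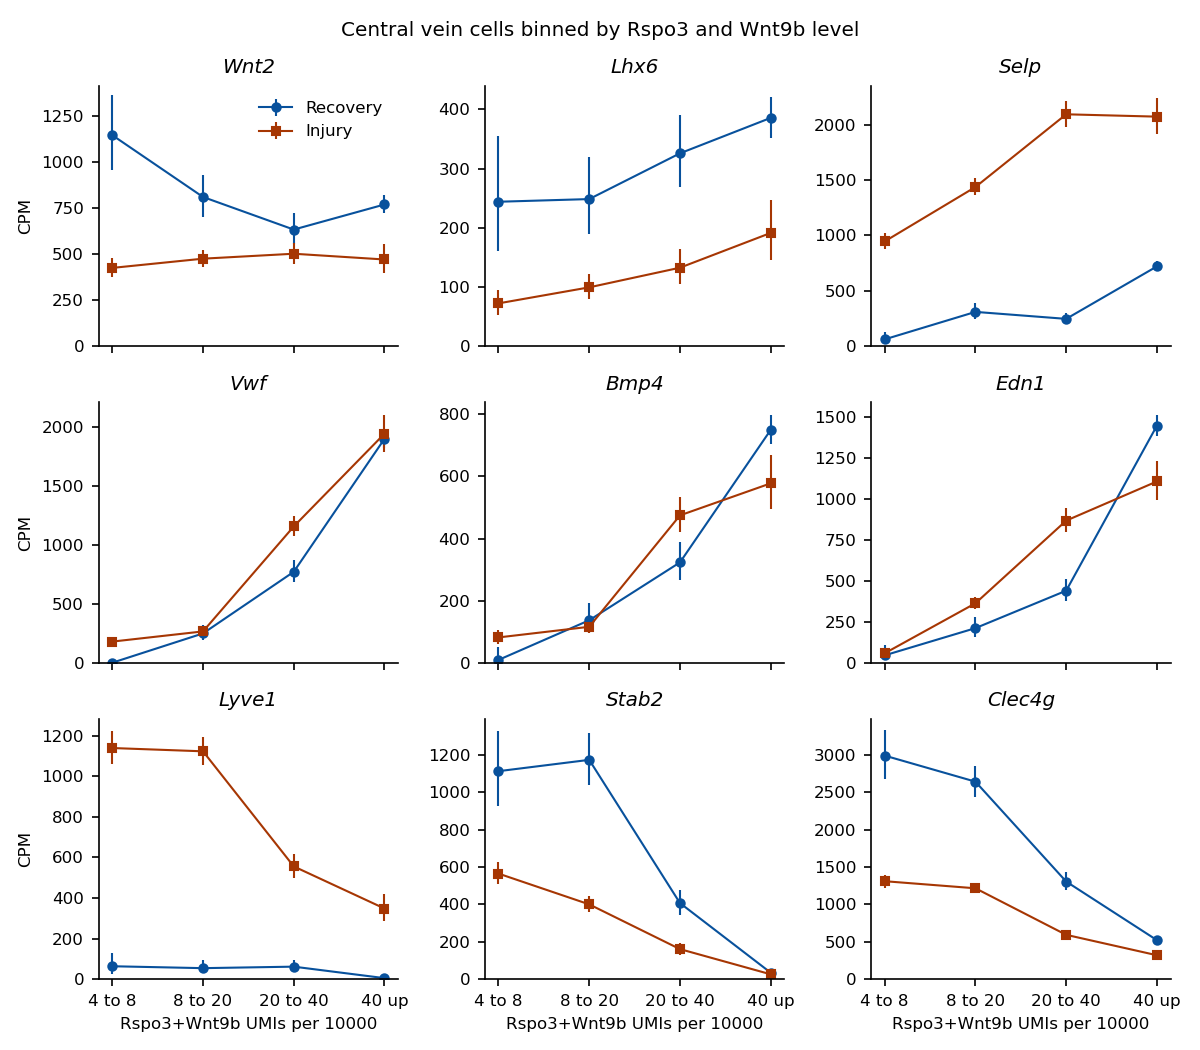
Levels in CPM of 9 genes in 4 ranges of the Rspo3 and Wnt9b level per cell, in the recovery and injury libraries, with exact Poisson 95% intervals. Vwf, Bmp4 and Edn1 are lowest in the range of 4 to 8 per 10000 in both libraries, Stab2 and Clec4g are lowest in the top range, and Lyve1 is higher at injury in every range.

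Between the conditions, central vein cells at recovery held more RNA of elastin and of a set of mostly central vein genes, and less RNA of Lyve1 and of interferon and chemokine genes, than those at injury. Of 5755 genes tested, 2.43% were 2-fold or more higher and 4.27% lower at recovery. The median log2 ratio over all genes was 0.11. Scaling by the trimmed mean of M values moved every ratio by -0.16 and gave 93 genes higher and 316 lower, against 140 and 246 on CPM. In other endothelial cells 0.953% of 5667 genes were higher and 3.74% lower at recovery, with a median of 0.18. Because the recovery cells sit higher on the Rspo3 and Wnt9b level, a different mix of cells and a different level per cell cannot be told apart from the whole-group values. Values of cells at 20 or more per 10000, 133 at recovery and 122 at injury, are therefore given beside them for some of the genes. Where none is given, the whole-group ratio includes the difference in mix. That limit was chosen after the data were seen.

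Wnt2 was at 773 CPM (735 to 812) at recovery and 469 CPM (443 to 497) at injury, a log2 ratio of 0.71 that stayed under the 2-fold limit and equalled the 0.71 of other endothelial cells. Over all genes 2.43% were higher and 4.27% lower at recovery in central vein cells, and 0.953% and 3.74% in other endothelial cells. Of the 12 pericentral genes, 5 were called higher at recovery and none lower (median 0.95), against 0 and 2 of 10 in other endothelial cells (median 0.25). The 5 were Lhx6 (1.57), Fabp4 (1.35), Cdh13 (1.14), Bmp4 (1.12) and Edn1 (1.05). In cells at 20 or more per 10000, Lhx6 had 373 CPM at recovery and 153 CPM at injury (1.24), and Fabp4 5212 and 2051 CPM (1.34), both still past 2-fold. The same cells had ratios under the limit for Cdh13 (0.95), Bmp4 (0.36), Edn1 (0.37) and Vwf (0.22). The whole-group ratio of Vwf was 1.05, at 1393 CPM (1342 to 1446) at recovery and 666 CPM (635 to 699) at injury. With trimmed-mean scaling the ratios of Bmp4, Cdh13, Edn1 and Vwf were also under the limit, at 0.96, 0.98, 0.89 and 0.89.

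Eln (chr5:134702593-134747323, minus strand), the gene of the elastic fibre protein elastin, had 255 CPM (233 to 278) at recovery and 9.45 CPM (6.06 to 14.1) at injury in central vein cells. In other endothelial cells it was at 9.12 CPM at recovery and 7.31 CPM at injury. The log2 ratio was 3.77 in central vein cells, and 3.28 in those at 20 or more per 10000, at 307 against 22.6 CPM. The 5 cells with most Eln held 25.3% of its 509 UMIs at recovery and 75% of its 24 UMIs at injury, so the recovery level was spread over many cells. By size of the ratio 12 genes were named on each side. Fndc1, a fibronectin-domain gene, was at 119.5 CPM (105 to 136) at recovery and 7.48 CPM (4.50 to 11.7) at injury, and at 0 in the other endothelial cells of both libraries. Tnni3, the cardiac troponin I gene, was at 117 against 1.58 CPM, with 48.1% of its 233 recovery UMIs in 5 cells. Ncam1, a neural cell adhesion gene, was at 110.0 CPM (96.0 to 126) at recovery and 8.66 CPM (5.43 to 13.1) at injury, and Crip1, a small LIM protein gene, at 470.1 CPM (441 to 501) at recovery and 51.2 CPM (42.8 to 60.8) at injury. In the 4 ranges of Rspo3 and Wnt9b level Crip1 was at 27.1, 104, 220 and 646 CPM at recovery and 23.7, 20.4, 76.1 and 153 CPM at injury. Recovery was above injury in the 3 upper ranges. In the lowest range the recovery value rests on 3 UMIs in 11 cells (5.59 to 79.3 CPM), which is too few to compare the libraries there.

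Ctsh, a lysosomal cathepsin, was at 444 CPM (415 to 474) at recovery and 77.6 CPM (67.1 to 89.2) at injury, and at 535 against 167 CPM in cells at 20 or more per 10000. Cst3, the cathepsin inhibitor cystatin C, was at 1735 CPM (1678 to 1794) at recovery and 428 CPM (403 to 454) at injury, and Pltp, a phospholipid transfer protein, at 110.0 CPM (96.0 to 126) at recovery and 20.9 CPM (15.6 to 27.3) at injury. Mras, a Ras-family GTPase, was at 191 CPM (172 to 211) at recovery and 25.2 CPM (19.4 to 32.2) at injury, and Ajap1, a junction-associated protein, at 53.0 CPM (43.4 to 64.1) at recovery and 3.15 CPM (1.36 to 6.21) at injury. In other endothelial cells Ctsh was at 7.75 CPM at recovery and 10.1 CPM at injury, Pltp at 5.13 CPM at recovery and 1.81 CPM at injury and Mras at 6.32 CPM at recovery and 2.69 CPM at injury, while Cst3 was at 522 CPM at recovery and 256 CPM at injury. Ltbp4, which anchors latent TGF-beta to elastic fibres, was higher at recovery in both cell groups, with log2 ratios of 2.29 in central vein and 2.34 in other endothelial cells. Rnaset2b behaved alike in both groups (2.61 and 2.45), but it has a near-identical copy and its counts are uncertain.

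Lyve1 (chr7:110850607-110863239, minus strand), a hyaluronan receptor of sinusoidal and lymphatic endothelium, had the most negative ratio of recovery over injury among the 12 genes named lower. It had 24.0 CPM (17.7 to 31.8) at recovery and 894 CPM (857 to 931) at injury in central vein cells, a log2 ratio of -4.73, and 489 CPM at recovery and 1639 CPM at injury in other endothelial cells, a log2 ratio of -1.73. After thinning every cell to 2000 UMIs, a Lyve1 UMI was found in 7 of 170 central vein cells (4.12%, 1.67 to 8.30) at recovery and 160 of 325 (49.2%, 43.7 to 54.8) at injury. The unthinned shares were 10.5% and 65.0%, at median depths of 11147 and 7434 UMIs. In duct-marked cells, which should lack Lyve1, the thinned shares were 0.412% at recovery and 1.40% at injury, at median depths of 11974 and 16089 UMIs. The unthinned shares there were 1.6% and 6.89%. In the cells at 20 or more per 10000 Lyve1 was at 17.0 CPM at recovery and 486 CPM at injury, and in the 4 ranges it was at 63.3, 53.9, 61.3 and 4.66 CPM at recovery and 1139, 1123, 555 and 348 CPM at injury. Injury cells were above recovery cells in every range. The lymphatic endothelial markers summed to 11.5 CPM in central vein cells at recovery and 13.0 CPM at injury, with Ccl21a at 0 in both.

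Among thinned central vein cells at recovery, 4 of 170 held UMIs of both Vwf and Lyve1, 99 of Vwf alone, 3 of Lyve1 alone and 64 of neither. At injury 33 of 325 held both, 92 Vwf alone, 127 Lyve1 alone and 73 neither. Of the 15 sinusoidal genes, 3 were called lower at recovery and none higher (median -0.32), beside 4.27% lower and 2.43% higher of all genes. The other genes called lower besides Lyve1 were Clec1b, a platelet-binding lectin (-1.77), and Flt4, the receptor of VEGF-C (-1.06). The remaining 12 were under the limit, among them Stab2 with 298 CPM (275 to 323) at recovery and 339 CPM (317 to 362) at injury. Within the 4 ranges of Rspo3 and Wnt9b level, Stab2 was instead higher at recovery. It was at 1112, 1173, 407 and 34.1 CPM at recovery and 564, 399.6, 160.3 and 25.5 CPM at injury. The intervals of the top range overlapped. Clec4g was also higher at recovery in every range.

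Of the 18 large vessel genes, 3 were called higher at recovery (Vwf, Eln and the transcription factor gene Sox18) and 2 lower (Selp and the chemokine-binding Ackr1), with a median of 0.26. The shares over all genes were 2.43% higher and 4.27% lower. Selp was at 550.1 CPM (518 to 584) at recovery and 1544 CPM (1496 to 1593) at injury in central vein cells, a log2 ratio of -1.47, and at 4.59 CPM at recovery and 205 CPM at injury in other endothelial cells, a log2 ratio of -3.88. At 20 or more per 10000 it was at 618 CPM at recovery and 2085 CPM at injury. A Selp UMI was found in 45.9% of thinned central vein cells at recovery and 76.3% at injury (79.5% and 87.3% unthinned), and in 0 of 243 duct-marked cells at recovery and 0 of 570 at injury, which allow up to 1.51% and 0.645%. Other endothelial cells had 0.358% and 20.7%. Sele was also called lower at recovery (-1.35), and Vcam1 (-0.33) and Icam1 (-0.91) were under the limit in central vein cells, while all 4 were called lower in other endothelial cells. Thbd (843 against 1602 CPM, -0.92) was just under the limit in central vein cells, and Procr (-1.35, with the few injury cells given above) and the plasminogen activator receptor Plaur (-2.42) were called lower.

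Genes induced by interferon were lower at recovery in both cell groups: 15 of 20 in central vein cells (median -2.10) and 17 of 20 in other endothelial cells (median -2.19), and none higher. Irf7, a transcription factor of the interferon response, was at 21.5 CPM (15.6 to 29.0) at recovery and 485 CPM (458 to 513) at injury, and in other endothelial cells at 20.7 CPM at recovery and 585 CPM at injury. Rsad2, the antiviral enzyme viperin, was at 19.0 CPM (13.4 to 26.1) at recovery and 662 CPM (631 to 694) at injury, and Ifit1 and Ifit3 had ratios of -3.78 and -3.87. The values of Irf7 in the 4 ranges at injury, 453, 498, 534 and 418 CPM, were close to each other. Of 11 chemokine and cytokine genes, 6 were called lower and none higher (median -1.42). Cxcl10, a chemokine for T cells, was at 238 CPM (217 to 260.4) at recovery and 2416 CPM (2356 to 2478) at injury, and Ccl2, a chemokine for monocytes, had a ratio of -3.17. The acute-phase genes Lrg1 (-1.5) and Socs3 (-1.29) and the metallothionein gene Mt2 (-3.41) were lower too. Of 16 immediate early and heat shock genes, 6 were lower in central vein and 5 in other endothelial cells, and the part of tissue digestion in them was not tested. The share lower over all genes was 4.27% in central vein and 3.74% in other endothelial cells.

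Among secreted signals Inhbb, which encodes the beta B subunit of activins, was at 43.0 CPM (34.4 to 53.1) at recovery and 570.2 CPM (541 to 600.4) at injury in central vein cells and 56.1 CPM at recovery and 309.8 CPM at injury in other endothelial cells, with log2 ratios of -3.45 and -2.27. In the 4 ranges of Rspo3 and Wnt9b it was at 109, 33.2, 44.6 and 38.8 CPM at recovery, highest in the thin lowest range of 11 cells, and at 581, 556, 581 and 568 CPM at injury. Hgf (-1.73) and Bmp2 (-1.0) were called lower at recovery in central vein cells; in other endothelial cells Bmp2 had 0.09. Tgfb2 was called higher (1.47), but was at 0.71 in cells at 20 or more per 10000. Of 11 genes for BMP and TGF-beta receptors and feedback, 4 were higher at recovery in central vein cells and none lower (median 0.68), against 1 in other endothelial cells (median 0.53). The 4 were Id3 (2075 against 613 CPM, 1.74) and Id1 (356 against 115 CPM, 1.55), transcriptional targets of BMP signals, Bambi (1.63), a decoy receptor, and Smad7 (1.10), an inhibitor whose ratio lies within 0.16, the scaling shift, of the limit. The same genes had 1.27, 1.0, 0.62 and 0.96 in other endothelial cells. Higher at recovery over all genes were 2.43% in central vein and 0.953% in other endothelial cells.

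Among lipid handling genes Fabp4 (1.35) was higher at recovery, and the cholesterol exporter Abca1 (-2.06) and Cd36 (-1.41) were lower. In other endothelial cells Abca1 had a ratio of -2.23. Of 10 hypoxia response genes 4 were lower at recovery in central vein cells (median -0.76) and none higher: the glucose transporter Slc2a1 (-1.54), the vasodilator peptide gene Adm (-1.39), Ndrg1 (-1.21) and the oxygen-sensing factor Hif1a (-1.17). In other endothelial cells Adm was the 1 of 8 called, at -1.13. Of 9 antigen presentation genes the checkpoint ligand Cd274 was lower (-2.14) and none higher in central vein cells. Of all genes, 4.27% were lower and 2.43% higher at recovery in central vein cells, and 3.74% lower in other endothelial cells.

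**Figure D5:**
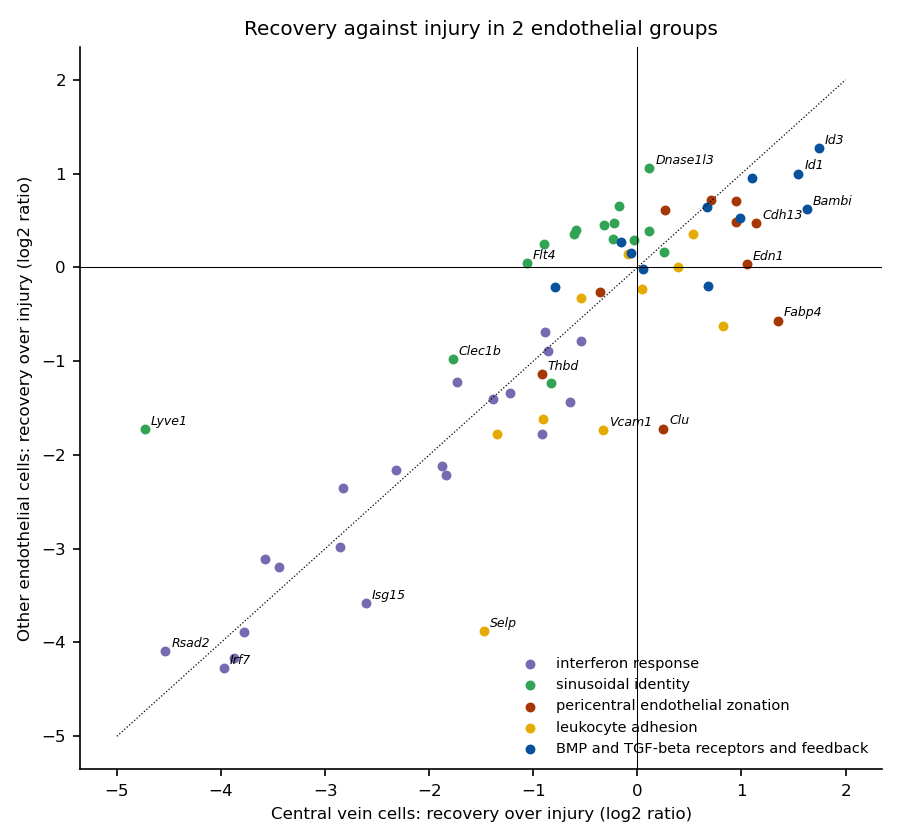
Log2 ratio of recovery over injury in central vein cells (horizontal) and in other endothelial cells (vertical) for the measured genes of 5 lists, coloured by list, with the dotted line of equal ratios. Interferon genes are low on both axes, Lyve1 is at -4.73 in central vein and -1.73 in other endothelial cells, and Selp is at -1.47 and -3.88.

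Summed markers of other cell types are given here as levels beside these results, and their part in them was not tested. Cholangiocyte markers had the largest sum at recovery, 509 CPM in central vein against 383 CPM in other endothelial cells, and 305 against 665 CPM at injury. In central vein cells at recovery the stellate cell markers summed to 18 CPM, with Lrat, Colec11, Pdgfrb and Col1a1 at 0, against 43.8 CPM in other endothelial cells. At injury they summed to 316 CPM against 82.9 CPM, and Dcn, the proteoglycan decorin, was the gene that carried them, at 9.50 CPM at recovery and 229 CPM at injury. A single injury cell held 47.8% and 5 cells 90.5% of its 582 UMIs, so the value belongs to a few barcodes. Haemoglobin Hba-a1 was at 0 and 143 CPM, and 1 injury cell held 99.2% of its 362 UMIs. The lymphocyte genes Ptprc, Cd3e and Nkg7 were at 0 in central vein cells of both libraries. Hepatocyte markers summed to 238 CPM in central vein against 203 CPM in other endothelial cells at recovery, and to 231 against 504 CPM at injury. Macrophage markers summed to 46.0 against 17.1 CPM at recovery, with Clec4f and Vsig4 at 0 in central vein cells, and to 148 against 87.2 CPM at injury, with Csf1r at 0. Mesothelial markers summed to 157 against 6.91 CPM at recovery and 79.9 against 17.0 CPM at injury, in central vein cells mostly from Gpm6a, which had 152 CPM against 3.93 CPM at recovery and 75.2 against 11.6 CPM at injury.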

How the data were processed

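Single-cell RNA-seq was measured in reporter-negative and reporter-positive liver cells of MCDHF-injury and recovery mice. The authors deposited filtered matrices of whole-number UMI counts per gene and cell (raw counts, not normalized), written by software of version 3.1.0 per the file headers, with 31053 features. Per the submitters' processing notes, fastp (versions 1 and 2.5.3a), featureCounts 1.6.2 and the builds mm10 and GRCh38 were named, without their roles. The sources used here give no handling of multi-mapped reads or strand. The reporter transcript is not among the features. The count matrix of the positive injury library was not analysed here.

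From the deposited counts, cells were kept and chosen by the stated limits, UMIs were summed per library and cell group, and CPM, exact Poisson and Clopper-Pearson 95% intervals, and log2 ratios with 10 CPM added were computed (Python 3.11.15, numpy 2.4.6, scipy 1.17.1, pandas 2.3.3). Genes with under 30 UMIs in both groups together, or under 30 CPM in each, were left out. Sums over 1 library per condition allow no test. The members, gene lists and named genes were chosen with earlier results of these data known. Named were the 20 genes highest and 12 lowest by the smaller ratio in both libraries, the 12 largest recovery over injury ratios on each side, the 6 largest differences between the libraries' ratios on each side, and the listed pathway genes. The genes of the rule were left out of every count and median. Cells were thinned to 2000 UMIs with seed 7; 1 recovery and 6 injury central vein cells were shallower and left out. Scrublet in scanpy 1.11.5 called 4 of 2818 and 14 of 5271 cells, 0.142% and 0.266%, and so did not work. Doublets were therefore kept, and an alternative removed the 77 and 304 highest scores. Other alternatives changed the scaling (edgeR 4.0.16 in R 4.3.3), added CPM, filter, depth and mitochondrial limits, the limits of the rule, or weighted cells equally. The steps were tested on simulated data. Promoter windows are RefSeq sequences.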

Additional observations from a re-analysis of the deposited data

Results flagged for a closer look

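Cells that met the central vein rule were also found in the positive recovery library, which no comparison above uses and which was enriched for cells with Col1a2 reporter activity. There were 35 such cells among 2126 kept, or 1.65% (1.15 to 2.28, exact binomial 95% interval). The count rests on the genes of the rule itself. Both genes were found in 9 of the 35 and Rspo3 alone in 26, and their median level was 5.57 UMIs per 10000, near the limit of 4. Another 103 cells of that library met the Rspo3 and Wnt9b limits but fell short of the endothelial limit, against 3 in the negative recovery and 29 in the negative injury library. The cells were 16.1% of the 218 endothelial cells of that library. Their median depth was 21270 UMIs, against 8774 UMIs in its 130 other endothelial cells. Rspo3 was at 1290 CPM and Wnt9b at 69.0 CPM in them. Vwf had 179 CPM against 9.14 CPM, Bmp4 176 against 3.66 CPM, Selp 100.3 against 1.83 CPM and Lhx6 62.7 against 8.23 CPM in other endothelial cells. Wnt2 had 340 CPM against 319 CPM, and Stab2 586 against 1161 CPM. Dcn, a mesenchymal gene, had 12776 CPM in these 35 cells against 486 CPM in the other endothelial cells. The part of barcodes that hold RNA of more than 1 cell was not tested.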

How the results depend on the processing

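No paired analysis was possible because each condition had 1 library and the results come from no test. Of 92 counts recomputed under other settings, 74 stayed within 1.5 times the main count, or for numbers of cells within its interval, and 18 did not. With trimmed-mean scaling 93 genes, and with median-of-ratios scaling 92, were higher at recovery in central vein cells, against 140; the split of higher calls was 22.7% and 22.4% against 36.3%. In other endothelial cells it was 9.48% and 9.09% against 20.3%. Adding 1 CPM gave 252 genes higher at recovery. Adding 50 CPM gave 126 higher and 104 lower in central vein cells of the recovery library, 51 and 26 in the injury library, and 54 and 112 for recovery over injury. With at least 5000 UMIs per cell, the injury library kept 292 central vein cells. Limits of 5 UMIs and 8 per 10000 left 238 injury cells and 108 genes lower there. Requiring a Wnt9b UMI left 140 recovery and 190 injury cells. Cells at 20 or more per 10000 were 133 and 122, with 203 genes higher and 200 lower than in other endothelial cells at injury, against 110 and 65 in the main counts. The last pair of settings was chosen after seeing the data. Dcn at injury, 2.11 over other endothelial cells, became -0.59 without cells with markers of other types, -0.45 with a Wnt9b UMI and -1.41 at 20 or more per 10000. Hba-a1, 3.65, became -0.13 with the stricter limits, -0.13 without the highest doublet scores and -0.28 at 20 or more per 10000. Both rest on a few cells. The median of the cholangiocyte markers at injury, -1.08, became 0.71 without cells with markers of other types. For the other changes the cause was not tested. Of single gene values, 1814 stayed within their spread, 572 moved and 6 reversed. Of 56 named genes called over other endothelial cells at recovery, 50 to 56 stayed past 2-fold across the settings; of 41 at injury, 38 to 41 did. For recovery over injury 29 of 41 did at 20 or more per 10000, 34 with 50 CPM added or the stricter limits, 35 with either scaling, and 38 to 41 otherwise.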

Other observations

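Several genes differed between central vein and other endothelial cells by unlike amounts in the recovery and injury libraries, and each value below rests on 1 library per condition with no test of the difference. The central vein cells of the libraries also differ in their Rspo3 and Wnt9b level, and the part of that was not tested. Serpina3n, a secreted protease inhibitor of the acute phase, was at 155 CPM in central vein cells against 4.47 CPM in other endothelial cells at recovery, and 304 CPM against 141 CPM at injury, with log2 ratios 3.51 at recovery and 1.06 at injury. Grrp1 was at 103 CPM in central vein cells against 3.46 CPM in other endothelial cells at recovery, and 76.4 CPM against 34.8 CPM at injury, with log2 ratios 3.07 at recovery and 0.95 at injury. Ctsh had log2 ratios 4.68 at recovery and 2.13 at injury, and Crip1 log2 ratios 3.03 at recovery and 0.93 at injury. In the opposite direction, Cyp26b1, the enzyme that breaks down retinoic acid, was at 152 CPM in central vein cells against 246 CPM in other endothelial cells at recovery, and 554 CPM against 274 CPM at injury, with log2 ratios -0.66 at recovery and 0.99 at injury. The sign of its ratio differed between the libraries, with both ratios under the 2-fold limit. Cyp4b1, a cytochrome P450, was at 188 CPM in central vein cells against 854 CPM in other endothelial cells at recovery, and 319 CPM against 447 CPM at injury. Clca3a1 was at 3.0 CPM in central vein cells against 65.3 CPM in other endothelial cells at recovery, and 88.2 CPM against 149.8 CPM at injury, so that both cell groups had more of it at injury. Il33, an alarmin, was at 87.5 CPM in central vein cells against 24.3 CPM in other endothelial cells at recovery, and 124 CPM against 31.7 CPM at injury, and Ier3, an early response gene, at 866 CPM in central vein cells against 268 CPM in other endothelial cells at recovery, and 2049.8 CPM against 906 CPM at injury.

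Of 23 transcription factor genes measured at recovery 2 were called higher and 4 lower in central vein cells, beside 3.95% and 4.34% of all genes, and at injury 1 of 22 was called higher, beside 2.04%. Gata6, called higher at recovery besides Lhx6, was at 41.0 CPM in central vein cells against 5.07 CPM in other endothelial cells at recovery, and 28.7 CPM against 14.4 CPM at injury. Meis1 had log2 ratios -1.27 at recovery and -0.62 at injury, and Ets1 log2 ratios -1.44 at recovery and -0.35 at injury. Of 12 genes of shear stress and nitric oxide 3 were called higher at recovery, and they were Edn1, Heg1 (log2 ratios 1.45 at recovery and 0.73 at injury) and Cav1 (log2 ratios 1.06 at recovery and 0.29 at injury); the flow-induced factor Klf2 was at 1597 CPM in central vein cells against 1879 CPM in other endothelial cells at recovery, and 2203 CPM against 1919.5 CPM at injury. Ednrb, the endothelin B receptor, was lower at recovery in both cell groups, with log2 ratios of -1.6 in central vein and -1.54 in other endothelial cells.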
